A study of Mus musculus with 22 samples.

Results

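The 44 genes described here serve G2 phase and mitosis, and their transcripts were followed in bone marrow mesenchymal stem cells (MSC) and in acute myeloid leukaemia (AML) cells of the mouse. They were taken by symbol from a named list, and all 44 were found among the 27179 gene rows of the count table. They fall into 9 groups by role. These include chromosome structure, cyclins with their regulators, mitotic kinases, the spindle checkpoint, and the chromosomal passenger complex with cohesion. The others are centromere and kinetochore, spindle, cytokinesis, and genes tied to the anaphase-promoting complex.

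In a dividing cell, cyclins A and B activate the kinase CDK1 in G2, chromosomes condense and attach through kinetochores to the microtubules of the spindle, and the spindle checkpoint holds the anaphase-promoting complex back until every chromosome is attached. That ubiquitin ligase then marks securin and cyclin B for destruction, sister chromatids part, and cytokinesis divides the cell. Most genes of this programme are transcribed in 1 wave in G2: the MuvB complex with B-MYB and FOXM1 activates them in cycling cells, and MuvB with E2F4 and an RB-like protein, together called DREAM, represses them in resting cells. Their transcripts are therefore commonly read as a mark of proliferating cells, in cultured stroma as in leukaemia.

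All mice were C57BL/6J. MSC had been expanded in culture from sorted bone marrow cells (lineage, CD45, CD31 and CD44 negative, SCA1 and CD51 positive) of animals aged 10 to 14 weeks that were Lama4-/-, lacking the laminin α4 chain of basement membranes, or wild type. AML cells were wild type Lineage-KIT+ marrow cells, from animals aged 10 to 12 weeks, that carried human MLL-AF9 from a retrovirus and had themselves been expanded in culture. MSC and AML cells were plated at 30000 each per well and sorted apart after 48 h, MSC as CD45-CD44-SCA1+ cells and AML cells as CD45.1+ cells. The 22 libraries form 6 groups: KO_AML (n = 3) and WT_AML (n = 3) are the wild type AML cells from co-culture with Lama4-/- or wild type MSC, KO_MSC_AML (n = 3) and WT_MSC_AML (n = 5) are the MSC from those co-cultures, and KO_MSC (n = 4) and WT_MSC (n = 4) are MSC cultured without AML cells. Whether replicates were separate animals or cultures is not given in the labels, so the p-values measure the spread between these libraries, which may be technical. By chi-square per degree of freedom across genes, pairs among WT_MSC 2, 3 and 4 differed by 4.26 to 7.95, and WT_MSC 1 from each of them by 183 to 229. KO_MSC 2 and 4 differed by 6.59, and the other KO_MSC pairs by 53.6 to 114. Pairs within WT_AML differed by 5.89 to 14.5, within KO_AML by 6.22 to 9.62, and among WT_MSC_AML 1, 2 and 4 by 5.62 to 10.4. The other WT_MSC_AML pairs differed by 19.5 to 73.3, and the KO_MSC_AML pairs by 33.4 to 115. The independent samples behind a group may thus be fewer than its n, which was not tested.

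Libraries held 11201751 to 24826876 counts, and no member was at 0 counts in any of them. Levels are given as CPM, a gene's counts scaled to library size with TMM factors from all 22 libraries together. Lama4 followed the genotype labels, at 0 to 1.03 CPM in the Lama4-/- MSC and 201 to 347 CPM in the wild type MSC. Of 13 blood and AML marker genes, the summed level was 12354 to 14049 CPM in AML cells, 60.6 to 256 CPM in KO_MSC_AML, 101 to 375 CPM in WT_MSC_AML and 1.88 to 5.95 CPM in MSC cultured alone, where Ptprc and Spi1 were at 0 in every KO_MSC library. The 9 MSC markers summed to 20539 CPM or more in every MSC library, although Lepr, which marks many marrow stromal cells in vivo, was at 0 in both co-cultured MSC groups, and the 4 endothelial markers to at most 22.4 CPM there. WT_MSC 1 stood apart from the other 3 WT_MSC libraries in the genes described here, and it alone among them had Xist (232 CPM) without Ddx3y. KO_MSC_AML 3 carries an AML cell type label, but its title and genotype say MSC, and it had 0.515 CPM of Ptprc and 17697 CPM of Col1a1, so it was analysed as MSC.

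RefSeq promoters of GRCm38.p6, reaching from 250 bases before to 50 after each start, were at hand for 36 of the 44 genes. They were searched on both strands for 2 elements known from this class of genes, the CCAAT box bound by NF-Y and the cell cycle genes homology region (CHR), TTTGAA or TTCGAA, to which MuvB binds. A CCAAT box stood in 27 of the 36 promoters (75.0%, against 41.1% of 27025 genes), at least 2 of them in 19 (52.8% against 13.3%), and a CHR in 29 (80.6% against 21.7%). Both elements together stood in 25 of the 36, or 69.4%, against 8.6% of all genes. Such a match describes the letters and is not a bound site. The members Birc5, Cit, Nuf2, Nusap1 and Plk4 had neither element in this window. The stretches below cover 120 bases before the start and 20 after it, written 5′ to 3′ in the direction of transcription, with CCAAT or ATTGG, its reverse complement, and the CHR in capitals. They are shown because Ccnb2, Aspm, Bub1 and Kif23 hold both elements near the start, whereas Cit and Plk4, the 2 genes that differed least between genotypes in 1 or more comparisons below, hold neither. This choice does not tie the elements to the differences. Nuf2, Birc5 and Nusap1, which also hold neither, had log2 fold changes of -3.64, -3.19 and -2.66 in KO_MSC against WT_MSC, and Cit had -2.45.
Ccnb2 (chr9:70421535-70421674, minus strand): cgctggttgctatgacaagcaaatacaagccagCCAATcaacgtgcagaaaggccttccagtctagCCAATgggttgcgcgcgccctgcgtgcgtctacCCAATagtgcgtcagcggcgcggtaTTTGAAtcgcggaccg
Aspm (chr1:139454653-139454792, plus strand): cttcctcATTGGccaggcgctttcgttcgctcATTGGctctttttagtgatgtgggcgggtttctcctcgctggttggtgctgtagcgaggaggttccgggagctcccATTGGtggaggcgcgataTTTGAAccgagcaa
Bub1 (chr2:127831840-127831979, minus strand): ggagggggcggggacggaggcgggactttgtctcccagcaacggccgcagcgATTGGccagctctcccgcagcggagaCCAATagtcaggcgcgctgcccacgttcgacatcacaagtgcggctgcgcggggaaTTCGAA
Kif23 (chr9:61946780-61946919, minus strand): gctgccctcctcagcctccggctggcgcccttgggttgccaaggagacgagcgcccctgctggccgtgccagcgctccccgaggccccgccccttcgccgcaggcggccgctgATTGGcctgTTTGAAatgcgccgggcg
Cit (chr5:115845536-115845675, plus strand): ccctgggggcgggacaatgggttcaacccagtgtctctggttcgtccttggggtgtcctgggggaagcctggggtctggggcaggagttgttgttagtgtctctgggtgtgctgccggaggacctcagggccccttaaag
Plk4 (chr3:40799831-40799970, plus strand): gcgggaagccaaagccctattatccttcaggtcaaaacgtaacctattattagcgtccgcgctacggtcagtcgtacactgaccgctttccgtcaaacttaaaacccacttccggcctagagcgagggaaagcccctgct
The spacing of the boxes differed between these genes: in Ccnb2 the CCAAT boxes begin 87, 54 and 21 bases before the start and a CHR at base 5 after it, with another CHR 167 bases before, outside the stretch shown. In Bub1 the boxes begin 68 and 42 bases before the start and the CHR at base 15 after it.

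The summed level of the 44 genes separated the groups. It was 5031, 5515 and 5517 CPM in KO_AML and 5171, 5401 and 5436 CPM in WT_AML. It was 679, 428 and 945 CPM in KO_MSC_AML and 1912, 2069.8, 1200.1, 2165 and 2014 CPM in WT_MSC_AML. In MSC cultured alone it was 256, 166, 223 and 137 CPM in KO_MSC and 262, 2012, 1639 and 1687 CPM in WT_MSC. AML cells were thus highest and Lama4-/- MSC cultured alone lowest, with KO_MSC_AML above KO_MSC and below WT_MSC_AML, and with WT_MSC 1 next to KO_MSC and not to its own group. Because these are bulk libraries, fewer cells in G2 or mitosis and less of these transcripts per cell cannot be told apart here or in any result below.

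**Figure D1:**
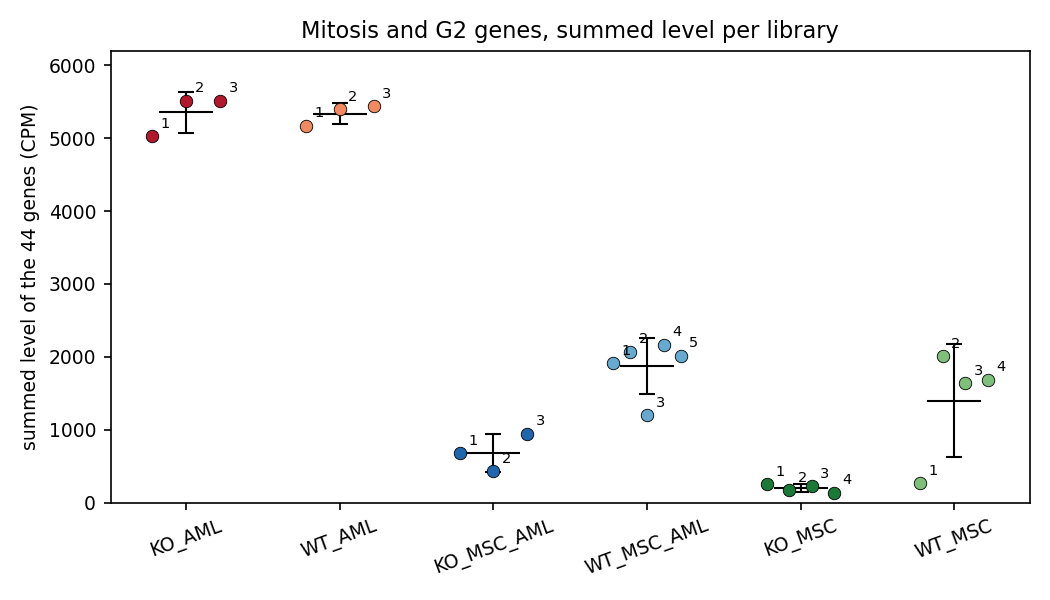
Summed level of the 44 mitosis and G2 genes (CPM, TMM-scaled over 22 libraries) in each library, with the replicate number beside each point and the group mean ± SD as black bars. The 6 AML libraries lie between 5031 and 5517 CPM, KO_MSC between 137 and 256 CPM, and WT_MSC replicate 1, at 262 CPM, lies far below the other 3 WT_MSC libraries.

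Scaled by exon length, the most abundant member was the cyclin gene Ccnb2 in 5 of the 6 groups, at 85.5 CPM per kb in KO_AML, 89.5 in WT_AML, 12.5 in KO_MSC_AML, 40.5 in WT_MSC_AML and 31.5 in WT_MSC. In KO_MSC the order differed, with Incenp at 3.06, Cdc20 at 2.94 and Cdk1 at 2.88 CPM per kb in front. In both AML groups the kinase gene Plk1 and Top2a followed Ccnb2, and in WT_MSC_AML and WT_MSC Kif20a and Cdc20 did.

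Lama4-/- MSC cultured alone had lower levels of mitosis and G2 genes than wild type MSC cultured alone, and none of the 44 was higher. Of the 44, 42 fell in KO_MSC against WT_MSC by edgeR's quasi-likelihood test with Benjamini-Hochberg adjusted p under 0.05 over 13344 genes, of which 11.6% were called in either direction, 5.24% higher and 6.34% lower. The median log2 fold change over the 44 was -2.90, against 0.01 over all genes tested, and it ran from -4.13 for Bub1 to -1.0 for Plk4. The 2 that did not pass were Cdk1 (-1.39, SE 0.41, adjusted p = 0.0606) and Plk4 (-1.0, SE 0.32, adjusted p = 0.0743). The number of calls rested on single libraries: 44 passed without WT_MSC 1, 19 without KO_MSC 1, 12 without KO_MSC 3, and 0 without WT_MSC 2, 3 or 4 or KO_MSC 2 or 4, while the median stayed between -3.26 and -2.67. In the authors' deposited table all 44 are lower at an adjusted p under 0.05, as are 15.0% of the genes with an adjusted p there, and 11.9% are higher.

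Among genes of chromosome structure, Mki67, whose protein coats mitotic chromosomes and serves as a proliferation marker (chromosome 7, 135689784 to 135716450), had 6.74, 5.10, 9.03 and 3.09 CPM in KO_MSC, against 10.2, 119, 92.2 and 113 CPM in WT_MSC. The topoisomerase gene Top2a, which untangles sister chromatids (chromosome 11, 98992947 to 99024199), had 15.8, 7.76, 12.4 and 6.66 CPM in KO_MSC, against 13.8, 173, 140.5 and 142 CPM in WT_MSC. For Mki67 every KO_MSC library lay below every WT_MSC library, by a narrow margin against WT_MSC 1, and for Top2a WT_MSC 1 lay within the KO_MSC range. Both fell (Mki67 -3.79, SE 0.72, adjusted p = 0.0266; Top2a -3.45, SE 0.71, adjusted p = 0.0301). Cdca2, which recruits a phosphatase to chromatin at mitotic exit, fell as well (adjusted p = 0.0449).

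Of the 5 genes of cyclins and their regulators 4 fell. Ccna2, cyclin A2, had 1.94, 1.80, 3.95 and 2.38 CPM in KO_MSC, against 4.36, 51.3, 36.2 and 36.4 CPM in WT_MSC. Ccnb2, cyclin B2, had 5.16, 1.37, 6.65 and 1.66 CPM in KO_MSC, against 5.34, 69.3, 61.3 and 56.6 CPM in WT_MSC. The KO_MSC libraries did not overlap WT_MSC for Ccna2, and KO_MSC 3 exceeded WT_MSC 1 for Ccnb2. Both fell (Ccna2 -3.65, SE 0.69, adjusted p = 0.0263; Ccnb2 -3.67, SE 0.83, adjusted p = 0.0336), as did Ccnb1, cyclin B1 (-2.93), and Foxm1, the activator of many G2 genes (-2.38). Cdk1 itself, the kinase these cyclins bind, differed less, at 14.6, 16.0, 14.8 and 11.4 CPM in KO_MSC, against 11.4, 53.9, 45.0 and 40.8 CPM in WT_MSC.

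Of the 3 mitotic kinase genes, Plk1, which acts at centrosomes, kinetochores and the midbody, had 4.31, 1.94, 4.52 and 1.60 CPM in KO_MSC, against 5.60, 46.1, 38.0 and 30.3 CPM in WT_MSC. Aurka, the centrosome and spindle kinase Aurora A, had 4.92, 2.08, 3.76 and 1.96 CPM in KO_MSC, against 3.63, 26.3, 18.8 and 19.7 CPM in WT_MSC. Both fell (Plk1 -3.26, SE 0.65, adjusted p = 0.0292; Aurka -2.41, SE 0.58, adjusted p = 0.0382). Plk4, which starts the duplication of centrioles, had 5.04, 4.03, 6.33 and 4.87 CPM in KO_MSC, against 4.82, 14.5, 11.1 and 10.4 CPM in WT_MSC, and its groups overlapped.

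All 3 spindle checkpoint genes fell. Bub1, a checkpoint kinase (chromosome 2, 127800197 to 127831859), had 1.15, 0.359, 0.502 and 0.475 CPM in KO_MSC, which rest on 5 to 19 counts a library, against 1.71, 17.8, 13.2 and 12.2 CPM in WT_MSC. Bub1b, which encodes BUBR1, an inhibitor of the anaphase-promoting complex, had 3.83, 2.23, 3.76 and 1.84 CPM in KO_MSC, against 2.59, 35.3, 31.5 and 33.6 CPM in WT_MSC. Bub1 had the lowest log2 fold change of the 44 (-4.13, SE 0.73, adjusted p = 0.0221), with no overlap between the groups, whereas for Bub1b (-3.12, SE 0.72, adjusted p = 0.0348) WT_MSC 1 lay among the KO_MSC libraries. Ttk, the checkpoint kinase MPS1, fell by 2.17 on the log2 scale and lay closest to the threshold of the genes that passed (adjusted p = 0.0496).

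All 5 genes of the passenger complex and of cohesion fell. Incenp, the scaffold of the complex, had 15.1, 13.3, 10.3 and 14.3 CPM in KO_MSC, against 16.1, 59.2, 46.8 and 48.6 CPM in WT_MSC. Cdca8, which encodes its subunit borealin, had 3.40, 2.80, 3.64 and 3.15 CPM in KO_MSC, against 3.42, 20.9, 14.8 and 17.6 CPM in WT_MSC. Incenp fell by less than its partners (Incenp -1.67, SE 0.36, adjusted p = 0.0311; Cdca8 -2.11, SE 0.48, adjusted p = 0.0340). The kinase gene Aurkb (-2.96), the survivin gene Birc5 (-3.19) and Sgo1, the shugoshin that guards centromeric cohesion (-3.30), fell further.

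All 5 genes of centromere and kinetochore fell, with log2 fold changes from -3.79 to -2.65. Cenpa, the histone H3 variant of centromeres, had 5.65, 1.65, 4.89 and 1.37 CPM in KO_MSC, against 5.45, 27.8, 27.6 and 27.1 CPM in WT_MSC. Cenpe, a kinetochore motor, had 5.59, 3.88, 5.96 and 2.61 CPM in KO_MSC, against 6.12, 37.6, 31.8 and 39.1 CPM in WT_MSC. Again the 3 higher WT_MSC libraries lay close together and WT_MSC 1 lay near the KO_MSC libraries. Nuf2, part of the NDC80 complex that holds microtubules, had the smallest adjusted p of the 44 (-3.64, SE 0.63, adjusted p = 0.0210). Its partner Ndc80 and Cenpf, a large kinetochore protein, had log2 fold changes of -2.96 and -3.79.

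All 9 spindle genes fell, with a median of -2.88. Tpx2, which activates Aurora A and nucleates microtubules, had 12.6, 8.84, 10.4 and 6.60 CPM in KO_MSC, against 16.8, 95.1, 77.8 and 85.5 CPM in WT_MSC. Kif11, the motor that pushes spindle poles apart (chromosome 19, 37376382 to 37421863), had 2.49, 2.01, 3.07 and 1.78 CPM in KO_MSC, against 2.44, 42.3, 32.4 and 32.6 CPM in WT_MSC. The Tpx2 values did not overlap between the groups, and for Kif11 KO_MSC 3 and KO_MSC 1 lay above WT_MSC 1. Aspm, a protein of the spindle poles, fell without overlap (-3.42, SE 0.59, adjusted p = 0.0213). The kinesin genes Kif2c and Kif4 had log2 fold changes of -2.67 and -3.04, and the genes of the microtubule-binding proteins Nusap1, Hmmr, Dlgap5 and Ckap2l had -2.66, -2.80, -2.88 and -3.01.

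All 8 cytokinesis genes fell, with a median of -2.58. Kif20a, a kinesin of the central spindle, had 12.6, 6.47, 9.35 and 4.81 CPM in KO_MSC, against 12.3, 130.2, 113 and 116 CPM in WT_MSC. Racgap1, a subunit of centralspindlin, had 11.1, 10.5, 13.9 and 9.57 CPM in KO_MSC, against 13.6, 89.2, 70.2 and 68.1 CPM in WT_MSC. In both genes WT_MSC 1 lay at the upper end of the KO_MSC range, far below the other 3 WT_MSC libraries. Prc1, which bundles the microtubules of the central spindle, the kinesin genes Kif20b and Kif23, and Anln, Ect2 and Cit had log2 fold changes of -2.35, -2.74, -3.79, -2.71, -2.22 and -2.45. The 3 genes tied to the anaphase-promoting complex fell too: Ube2c, its ubiquitin-conjugating enzyme, had 7.89, 4.53, 6.77 and 3.21 CPM in KO_MSC, against 6.90, 62.8, 51.0 and 54.9 CPM in WT_MSC. Cdca3, named as a trigger of entry into mitosis, had 4.80, 2.52, 5.52 and 1.60 CPM in KO_MSC, against 4.25, 47.9, 42.9 and 41.5 CPM in WT_MSC. The activator gene Cdc20 had a log2 fold change of -2.63, beside -2.95 for Ube2c and -3.22 for Cdca3.

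WT_MSC 1 was the lowest WT_MSC library for all 44 genes. The other 3 WT_MSC libraries averaged 6.81 times its level at the median gene, and 27 of the 44 lay within or below the range of KO_MSC in it. Its Lama4 level was 344 CPM, within the wild type range. The groups did not overlap for 17 genes, all lower in KO_MSC, against 9.88% of all genes tested that lay lower without overlap. Of the 4 endothelial markers Tek, a receptor of angiopoietins, had 6.74, 11.7, 22.1 and 10.2 CPM in KO_MSC, against 4.77, 0.0435, 0.479 and 0.132 CPM in WT_MSC (edgeR log2 fold change 3.23, SE 1.12, adjusted p = 0.0893), and its part in the result was not tested. Pecam1, Cdh5 and Kdr were at or under 1.04 CPM in all 8 libraries. The sex-linked transcripts differed among the libraries as well. KO_MSC 1 (Xist 179 CPM, Ddx3y 40.9 CPM) and KO_MSC 3 (297 and 1.82 CPM) had summed levels of the 44 genes of 256 and 223 CPM, against 166 CPM in KO_MSC 2 (Xist 2.16 CPM, Ddx3y 69.8 CPM) and 137 CPM in KO_MSC 4 (3.39 and 63.0 CPM). The 2 Lama4-/- libraries with Xist thus had the higher sums, whereas WT_MSC 1, with Xist, had the lowest sum of its group, and the part of these transcripts in the result was not tested. Among 2 KO_MSC and 3 WT_MSC libraries with Ddx3y but almost no Xist, all 44 genes were lower by the test, with a median of -3.83, where 60% of all genes were called in either direction. That subset leaves out WT_MSC 1, the wild type library near KO_MSC, so a large difference was fixed by the choice of libraries. It cannot tell genotype, the sex-linked transcripts and the source of the cultures apart.

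**Figure D2:**
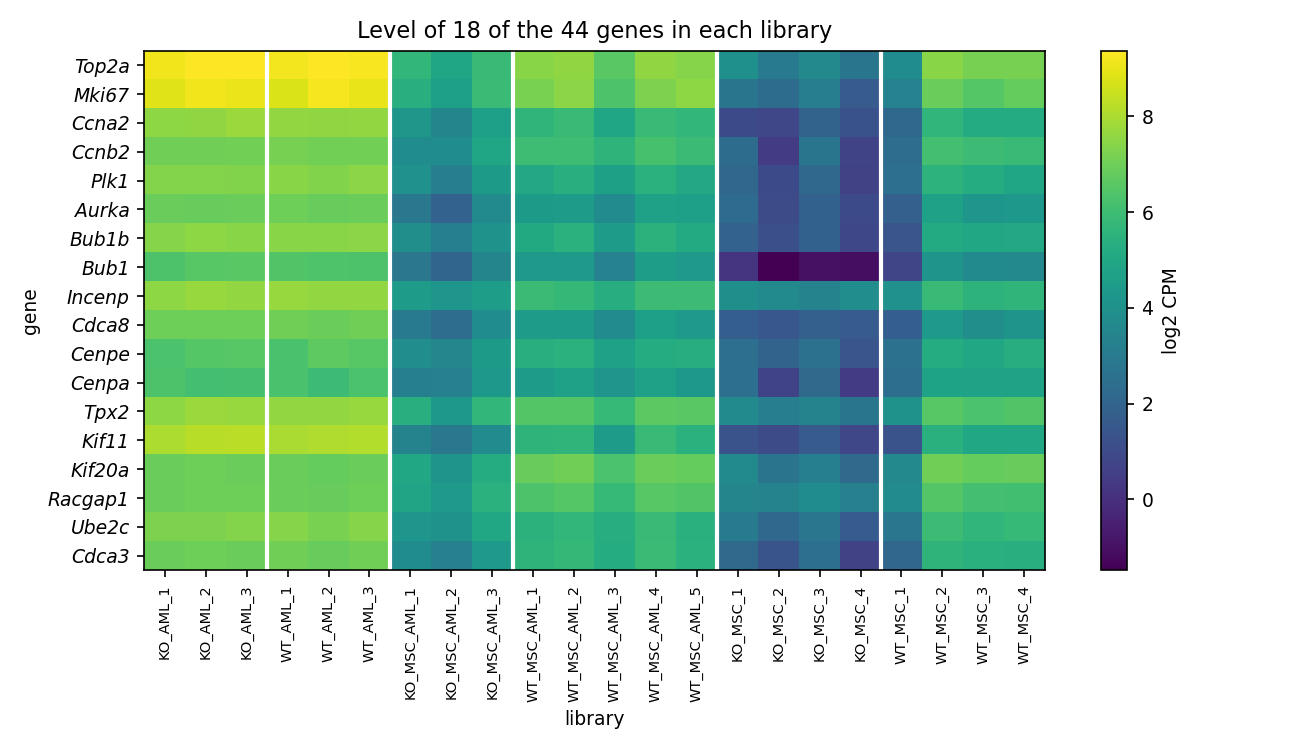
Level (log2 CPM, colour) of the 18 genes given library by library, in rows by role, in the 22 libraries, in columns by group with white lines between groups. The columns of KO_MSC and of WT_MSC replicate 1 are dark throughout, while the other 3 WT_MSC columns resemble WT_MSC_AML and the AML columns are brightest.

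The lower level reached beyond the 44. Of 30 other mitosis genes 23 fell and 0 rose in KO_MSC against WT_MSC (median -2.24), and of 30 genes of DNA replication and S phase 13 fell and 0 rose (median -1.17). Of 8 G1 cyclins and kinases, 7 CDK inhibitors and 12 core subunits of the anaphase-promoting complex 0 passed (medians -0.04, 0.72 and -0.17). Of 12 genes of MuvB, DREAM and the RB family 3 fell, among them Tfdp1, the partner of E2F proteins (-0.79). The log2 fold changes of these 12 ran from -2.39 to 0.81, with a median of -0.01. Mybl2, the B-MYB gene, had 1.15, 0.647, 0.627 and 0.951 CPM in KO_MSC. In WT_MSC it had 0.622, 6.78, 5.20 and 5.42 CPM. Cdkn1a, the p53 target that encodes the CDK inhibitor p21, had 1206, 1339, 947 and 1302 CPM in KO_MSC, against 1307, 359, 404 and 389.7 CPM in WT_MSC (edgeR log2 fold change 0.98 with SE 0.43, adjusted p = 0.149). Cdkn2a, which encodes p16 and ARF, had 372, 399.6, 446 and 403 CPM in KO_MSC, against 327, 73.3, 83.7 and 78.4 CPM in WT_MSC (1.54, SE 0.49, edgeR adjusted p = 0.0737). Both inhibitor genes were high in WT_MSC 1, the library with the low mitosis genes, and neither passed the test.

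The ratio of mitosis to S phase transcripts varied among the libraries. The summed level of the 44 genes divided by that of the 30 S phase genes was 0.203 to 0.391 in KO_MSC, against 0.278 in WT_MSC 1 and 1.84 to 1.92 in the other 3 WT_MSC libraries. It was 0.694 to 1.29 in KO_MSC_AML and 1.53 to 1.66 in WT_MSC_AML, and 0.966 to 1.06 in the 6 AML libraries. Much of the S phase sum of some MSC libraries came from Rrm1 and Rrm2, which encode the subunits of ribonucleotide reductase. Rrm2 had 318, 259.9, 151 and 225 CPM in KO_MSC, against 453, 209, 175 and 172 CPM in WT_MSC, highest in WT_MSC 1, and Rrm1 had 167, 190.4, 167 and 178 CPM in KO_MSC, against 240.4, 145, 125 and 130.4 CPM in WT_MSC. Without these 2 genes, a setting chosen after seeing the data, the ratio was 0.505 to 0.973 in KO_MSC, against 1.04 in WT_MSC 1 and 2.74 to 2.91 in the other 3 WT_MSC libraries, and it was 1.37 to 2.07 in KO_MSC_AML, 2.09 to 2.27 in WT_MSC_AML and 1.13 to 1.24 in the AML libraries. The sum of the remaining 28 S phase genes was 252 to 271 CPM in KO_MSC, against 251 CPM in WT_MSC 1 and 579 to 733 CPM in the other 3. With either sum the AML cells had a lower ratio than WT_MSC_AML and than 3 of the 4 WT_MSC libraries.

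**Figure D3:**
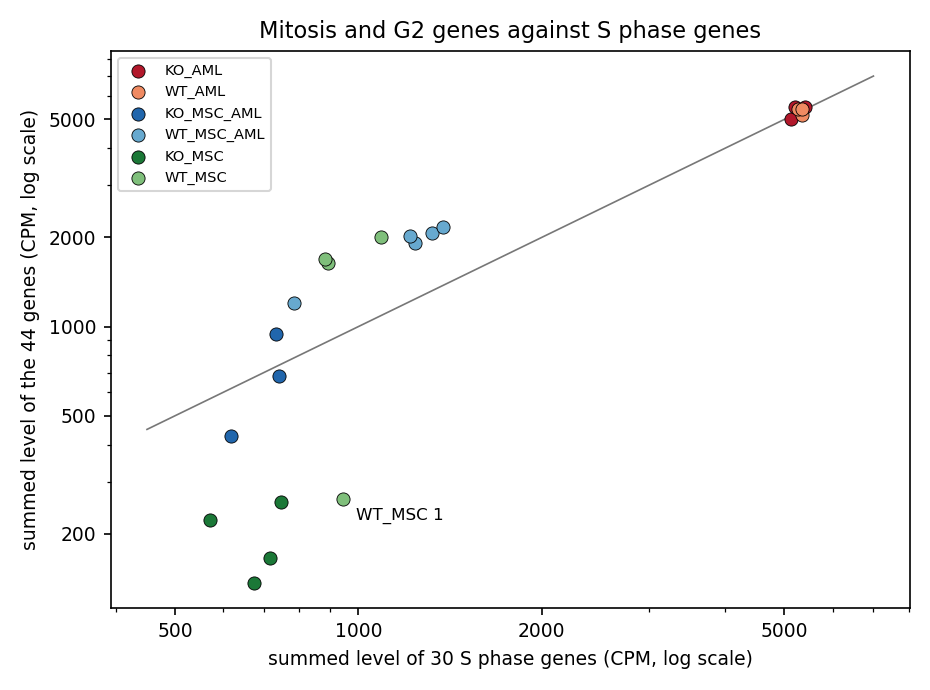
Summed level of the 44 mitosis and G2 genes against that of 30 S phase genes (both CPM, log scales), 1 point per library, with the grey line where the sums are equal. The S phase sums were 570.4 to 748 CPM in KO_MSC and 881 to 1088 CPM in WT_MSC, of which Rrm1 and Rrm2 made up 693 of 944 CPM in WT_MSC replicate 1, and the mitosis sums of KO_MSC and WT_MSC replicate 1 lie well under the line and those of the other WT_MSC libraries above it.

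Lama4-/- MSC sorted from co-culture had more of these transcripts than Lama4-/- MSC cultured alone. All 44 genes had a positive log2 fold change in KO_MSC_AML against KO_MSC, with a median of 1.88 against -0.00 over all genes tested, and 40 of the 44 lay above KO_MSC without overlap, against 11.3% of all genes. By the test 12 rose and 0 fell, where 0.743% of 13452 genes were called in either direction, 0.565% higher and 0.178% lower, and all 44 had an unadjusted p under 0.05, against 24.5% of all genes. The 12 were Mki67, Top2a, Ccna2, Bub1, Bub1b, Nuf2, Aspm, Kif11, Ckap2l, Kif23, Cit and Racgap1. The count moved with single libraries. It was 28 without KO_MSC 3, 34 without KO_MSC_AML 2, and 0 without KO_MSC 1, 2 or 4 or KO_MSC_AML 1 or 3. The median stayed between 1.53 and 2.11. Here too the share of all genes called in these fits is not given, so the counts do not describe the members alone. DESeq2 called 42, where it called 9.35% of all genes it tested in either direction, and the authors' deposited table has 42 higher at an adjusted p under 0.05, as are 9.74% of the genes with an adjusted p there, and 6.12% are lower.

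Ccna2 had the smallest p of the 44, at 19.4, 11.4 and 24.7 CPM in KO_MSC_AML, against 1.94, 1.80, 3.95 and 2.38 CPM in KO_MSC (log2 fold change 2.85, SE 0.35, adjusted p = 0.0340). Bub1 had the largest fold change, at 6.99, 4.22 and 11.0 CPM in KO_MSC_AML, against 1.15, 0.359, 0.502 and 0.475 CPM in KO_MSC (3.52, SE 0.48, adjusted p = 0.0340). In each of these genes the 3 co-cultured libraries lay above the 4 others, with KO_MSC_AML 2 lowest and KO_MSC_AML 3 highest. Mki67 had 39.8, 25.3 and 60 CPM in KO_MSC_AML (2.78, SE 0.40, adjusted p = 0.0409 against KO_MSC) and Top2a 52.5, 29.7 and 57.4 CPM (2.11, SE 0.34, adjusted p = 0.0499). Bub1b had 14.7, 9.29 and 17.0 CPM (2.20, SE 0.32, adjusted p = 0.0386), and its groups did not overlap either.

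Spindle and cytokinesis genes supplied 6 of the 12. Kif11 had 10.4, 7.22 and 13.5 CPM in KO_MSC_AML, against 2.49, 2.01, 3.07 and 1.78 CPM in KO_MSC (2.13, SE 0.28, adjusted p = 0.0340). Racgap1 had 28.8, 20.9 and 44.2 CPM in KO_MSC_AML, against 11.1, 10.5, 13.9 and 9.57 CPM in KO_MSC (1.46, SE 0.25, adjusted p = 0.0499). Aspm (1.97), Ckap2l, a spindle protein (1.76), Kif23, the motor of centralspindlin (2.64), and Cit, the citron kinase of the midbody (2.30), rose as well. Tpx2 had 39.7, 19.6 and 52.6 CPM in KO_MSC_AML and Kif20a 31.6, 17.4 and 38.2 CPM, all above KO_MSC, and neither passed (adjusted p = 0.0544 and 0.0630).

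In the kinases, the passenger complex and the genes tied to the anaphase-promoting complex 0 members passed, although their fold changes had the same sign. Plk1 had 16.0, 9.07 and 21.5 CPM in KO_MSC_AML (2.30, SE 0.44, adjusted p = 0.0585 against KO_MSC), and Ube2c had 18.6, 16.5 and 31.4 CPM (1.96, SE 0.34, adjusted p = 0.0517). Incenp had the smallest log2 fold change, at 22.5, 18.7 and 23.8 CPM in KO_MSC_AML, against 15.1, 13.3, 10.3 and 14.3 CPM in KO_MSC (0.70, SE 0.16, adjusted p = 0.0701). Aurka had the largest p, at 7.37, 3.79 and 13.1 CPM in KO_MSC_AML, against 4.92, 2.08, 3.76 and 1.96 CPM in KO_MSC (1.32, SE 0.47, adjusted p = 0.142). KO_MSC_AML 2 lay among the KO_MSC libraries for Aurka, which with Plk4, Nusap1 and Kif20b made up the 4 genes whose groups overlapped. Cenpa, Cenpe, Cdca8, Ccnb2 and Cdca3 had log2 fold changes of 1.88, 1.79, 1.45, 2.35 and 2.01, and none of these 5 passed.

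Of the other lists, 4 of 30 other mitosis genes, 4 of 30 S phase genes and 1 of 12 genes of MuvB, DREAM and the RB family rose, the last being Mybl2, which encodes B-MYB, at 3.38, 4.43 and 3.82 CPM in KO_MSC_AML, against 1.15, 0.647, 0.627 and 0.951 CPM in KO_MSC (2.17, SE 0.33, edgeR adjusted p = 0.0430). Cdkn1a had 648, 799 and 460.5 CPM in KO_MSC_AML (edgeR log2 fold change -0.93 with SE 0.23, adjusted p = 0.0740). These Cdkn1a values lay below every KO_MSC library, were highest in KO_MSC_AML 2 and lowest in KO_MSC_AML 3, and so ran opposite to the summed level of the 44 genes over these 3 libraries. Of the other CDK inhibitors, Cdkn2b and Cdkn2c ran opposite as well, and Cdkn1c, at 56.5, 46.7 and 175 CPM, ran with the sum. Cdkn1b, Cdkn2a and Cdkn2d did neither. All 3 KO_MSC_AML libraries had Xist with at most 0.929 CPM of Ddx3y, as had KO_MSC 3 with 1.82 CPM, whereas KO_MSC 1, 2 and 4 had 40.9 CPM of Ddx3y or more, with 179 CPM of Xist in KO_MSC 1 and 2.16 and 3.39 CPM in KO_MSC 2 and 4. Co-culture and the sex-linked transcripts can thus not be told apart in this comparison or in the interaction below. Against KO_MSC 3 alone, a single library that cannot settle this, the median log2 fold change over the 44 was 1.62.

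AML cells held far more of these transcripts than MSC, so a small amount of AML RNA in a sorted MSC library adds to them. The share of AML RNA was estimated in each co-cultured library from genes with at least 100 CPM in AML cells that stayed below 1 CPM in each lone MSC library (69 genes for the Lama4-/- and 72 for the wild type co-cultures), as the median ratio of the library's level to the mean AML level. It was 0.536%, 1.77% and 0.802% in KO_MSC_AML and 1.24%, 3.06%, 0.840%, 1.51% and 0.879% in WT_MSC_AML. KO_MSC_AML 2, with the largest share of its group, had the lowest summed level of the 44 genes, and WT_MSC_AML 2, with 3.06%, ranked second of 5. The estimate assumes that AML RNA enters a library in proportion for all genes, whether from whole cells or from free RNA, which cannot be told apart.

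Carried over at these shares, AML cells would add 55.4 CPM to the summed level of KO_MSC_AML, or 11.3% of its difference from KO_MSC (684 ± 258 against 195 ± 54 CPM, SD, n = 3 and 4). That share was 5.81% without KO_MSC_AML 2 and 17.2% without KO_MSC_AML 3. By library the carried level was 28.7 of 679 CPM, 94.6 of 428 CPM and 42.9 of 945 CPM, so 22.1% of the summed level in KO_MSC_AML 2 and 4.23% and 4.54% in the others. Per gene it ran from 2.68% of the difference for Anln, an actin and septin binding protein of the cleavage furrow, to 37.1% for Kif11, and it was 15.0% for Mki67 and 17.9% for Top2a. For none of the 44 did the carried level reach the difference. With the carried level subtracted from the counts, the median log2 fold change was 1.76, Bub1 was at 3.35 and Ccna2 at 2.71, but 0 of the 44 and 0 of all genes passed (adjusted p = 0.0952 for each of these 2).

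**Figure D4:**
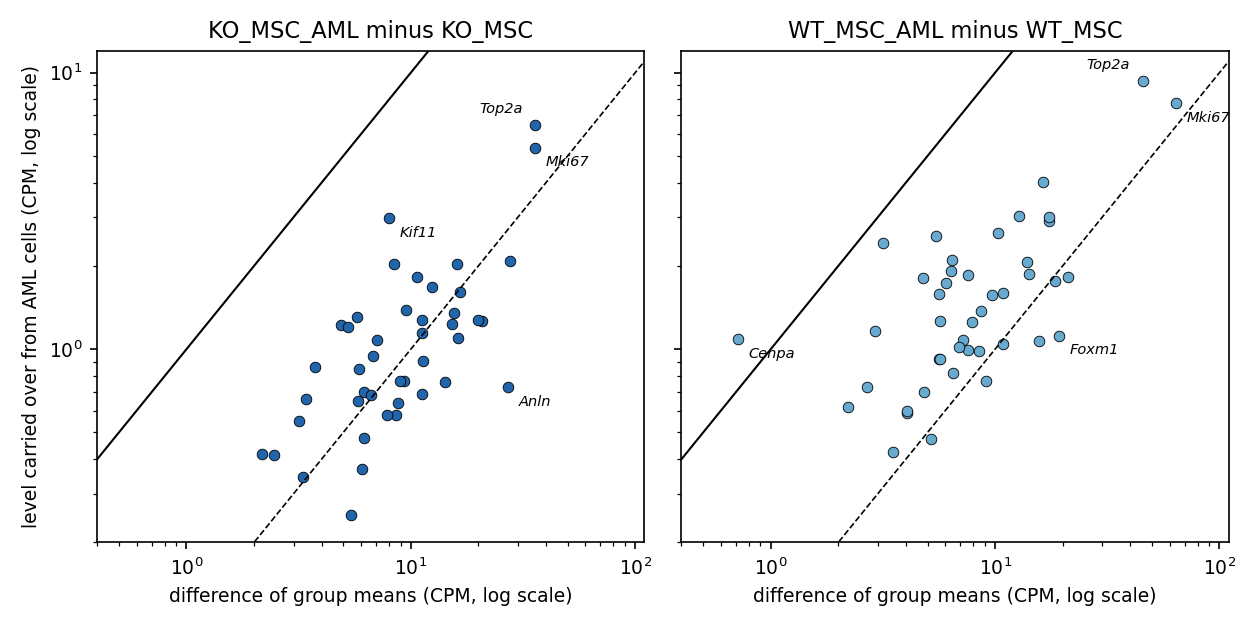
Level that AML RNA at the estimated share would add (CPM, log scale) against the difference between the means of co-cultured MSC and MSC alone (CPM, log scale), 1 point for each of the 44 genes, for Lama4-/- MSC on the left and wild type MSC on the right. On the solid line the 2 are equal and on the dashed line the carried level is 10% of the difference; every Lama4-/- point lies under the solid line, from 2.68% for Anln to 37.1% for Kif11, and Cenpa lies above it in wild type MSC.

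Anln and Kif11, named for the lowest and highest carried share of the difference, show how the increase and the AML level varied over genes. Anln had 36.6, 17.5 and 57.9 CPM in KO_MSC_AML and 12.8, 11.6, 10.2 and 5.82 CPM in KO_MSC, a difference of means of 27.2 CPM, beside 61.1 to 77.4 CPM in KO_AML. Kif11, at 263 to 306 CPM in KO_AML, differed by 8.03 CPM between the same MSC groups. Over the 44 genes the difference KO_MSC_AML minus KO_MSC had a Spearman's rho of 0.91 with the WT_MSC level, 0.91 with the WT_MSC_AML level and 0.64 with the KO_AML level. The KO_MSC level, without co-culture, had a rho of 0.81 with the WT_MSC level and 0.60 with the KO_AML level. These are descriptions across genes, which share libraries and depth and are not independent replicates. The source of the increase was not tested by them.

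In wild type MSC no member passed the test after co-culture. Of the 44 genes 0 passed in WT_MSC_AML against WT_MSC, where 0.744% of 13439 genes were called, 0.640% higher and 0.104% lower. By the same test 0 had an unadjusted p under 0.05, against 18.3% of all genes. DESeq2 called 0 of the 44 too, where it called 2.85% of all genes. All 44 log2 fold changes were positive, with a median of 0.43 against -0.00 over all genes, and no member was free of overlap between the groups, against 4.49% of all genes that lay above and 4.69% that lay below without overlap. Without WT_MSC 1 the median was 0.09, and with the carried AML level subtracted as well it was 0.05, a setting chosen after seeing the data. In this comparison the carried level came to 80.4 CPM, or 17.0% of the difference between 1872 ± 387 CPM in WT_MSC_AML and 1399.9 ± 776 CPM in WT_MSC (SD, n = 5 and 4). Without WT_MSC 1 the WT_MSC sum averaged 1779 ± 203 CPM (SD, n = 3), the difference was 93.1 CPM, and the carried level was 86.4% of it.

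Mki67 had the highest log2 fold change, at 147, 178, 80.1, 150.1 and 182 CPM in WT_MSC_AML, against 10.2, 119, 92.2 and 113 CPM in WT_MSC (0.81, SE 0.55, adjusted p = 0.436). Plk4 had the smallest p, at 16.0, 18.8, 8.50, 19.1 and 16.8 CPM in WT_MSC_AML, against 4.82, 14.5, 11.1 and 10.4 CPM in WT_MSC (0.62, SE 0.31, adjusted p = 0.309). Cenpa had the lowest fold change, at 22.8, 26.4, 17.9, 26.5 and 20.0 CPM in WT_MSC_AML, against 5.45, 27.8, 27.6 and 27.1 CPM in WT_MSC (0.04, SE 0.38, adjusted p = 0.964). Apart from WT_MSC 1 every WT_MSC value of Cenpa was higher than every WT_MSC_AML value, and its fold change was -0.28 without that library. The carried AML level of Cenpa, 1.09 CPM, was 154% of its difference of means, and that of Ube2c, at 45.3, 52.1, 38.8, 57.2 and 42.0 CPM in WT_MSC_AML, was 76.5% of its difference. WT_MSC_AML 3 had the lowest value of its group in each of these 4 genes.

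**Figure D5:**
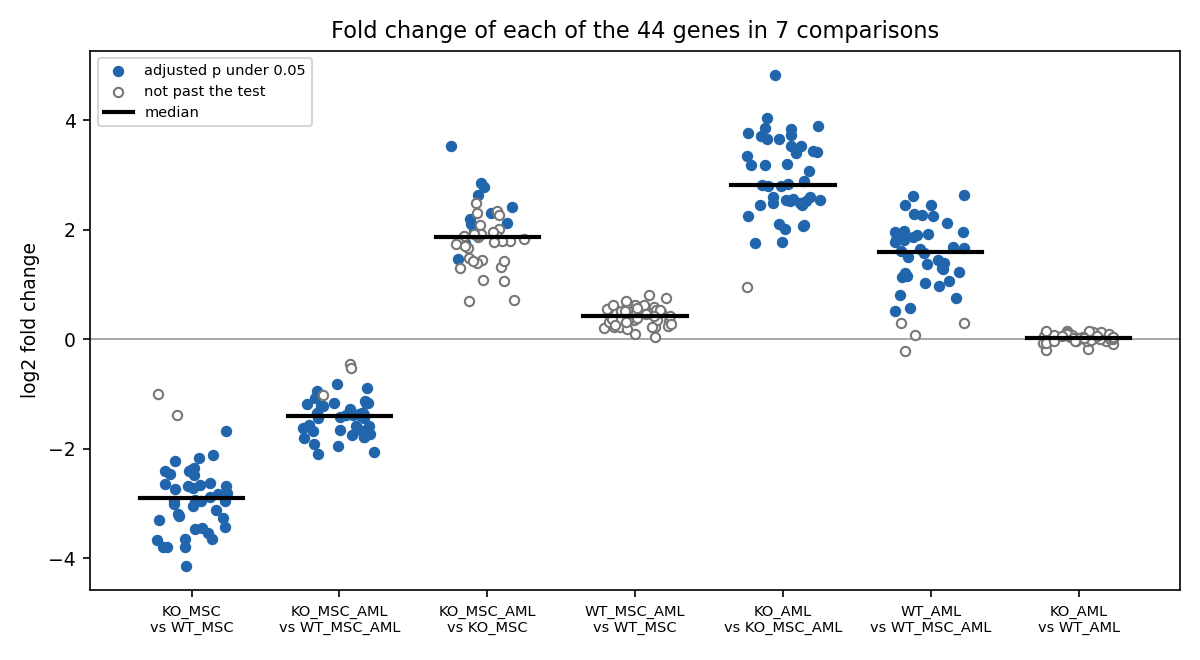
Log2 fold change of each of the 44 genes in 7 comparisons, each named with its numerator first, with filled points for edgeR adjusted p under 0.05, open points for the others and a black line at the median. The medians are -2.90, -1.40, 1.88, 0.43, 2.83, 1.60 and 0.03 from left to right.

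After co-culture the 44 genes were still lower in Lama4-/- MSC than in wild type MSC. In KO_MSC_AML against WT_MSC_AML 41 of the 44 fell and 0 rose, where 31.4% of 13710 genes were called and 14.5% lower, with a median log2 fold change of -1.40 against -0.01 over all genes. Without overlap 33 of the 44 lay lower in KO_MSC_AML, against 16.6% of all genes. Plk4 (adjusted p = 0.255), Ect2, an activator of RhoA in cytokinesis (adjusted p = 0.0770), and Cit (adjusted p = 0.149) did not pass. Leaving out any 1 library gave 34 to 43 calls, and subtracting the carried AML level gave 41. For these fits the share of all genes called is not given. All KO_MSC_AML libraries had Xist and all WT_MSC_AML libraries had Ddx3y, so in this comparison genotype and the sex-linked transcripts cannot be told apart.

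Top2a had 52.5, 29.7 and 57.4 CPM in KO_MSC_AML, against 173, 187, 97.5, 191 and 167 CPM in WT_MSC_AML (-1.79, SE 0.27, adjusted p = 0.000948). Mki67, at 39.8, 25.3 and 60 CPM in KO_MSC_AML, lay below the WT_MSC_AML values given above (-1.81, SE 0.33, adjusted p = 0.00334). Kif20a had 31.6, 17.4 and 38.2 CPM in KO_MSC_AML, against 114, 130.2, 78.5, 123 and 110.3 CPM in WT_MSC_AML (-1.92, SE 0.25, adjusted p = 0.000414). In all 3 genes the groups were separate, with KO_MSC_AML 3 nearest to WT_MSC_AML 3. Incenp had the smallest adjusted p, at 22.5, 18.7 and 23.8 CPM in KO_MSC_AML, against 60.8, 53.1, 39.1, 61.4 and 63.0 CPM in WT_MSC_AML (-1.34, SE 0.17, adjusted p = 0.000229). Sgo1 had the lowest fold change, at 3.61, 2.86 and 2.79 CPM in KO_MSC_AML, against 12.6, 13.9, 6.90, 15.7 and 17.7 CPM in WT_MSC_AML (-2.10, SE 0.30, adjusted p = 0.000570). Unlike most members, Sgo1 was not higher in KO_MSC_AML 3 than in the other 2 libraries.

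Among the cyclins, Ccnb2 had 13.7, 14.1 and 29.8 CPM in KO_MSC_AML, against 63.5, 64.1, 47.8, 73.5 and 61.2 CPM in WT_MSC_AML (-1.68, SE 0.26, adjusted p = 0.00112). Ccna2 had 49.2, 58.1, 29.4, 58.8 and 51.5 CPM in WT_MSC_AML and was lower in KO_MSC_AML (-1.40, SE 0.28, adjusted p = 0.00430). Both stood apart in every library of the 2 groups. Of the kinases, Plk1 had 16.0, 9.07 and 21.5 CPM in KO_MSC_AML, against 33.2, 40.6, 25.6, 44.1 and 33.7 CPM in WT_MSC_AML (-1.17, SE 0.26, adjusted p = 0.00712), and Aurka 7.37, 3.79 and 13.1 CPM in KO_MSC_AML, against 21.5, 22.3, 13.6, 26.9 and 25.1 CPM in WT_MSC_AML (-1.42, SE 0.35, adjusted p = 0.0128). Plk1 and Aurka of KO_MSC_AML 3 came close to those of WT_MSC_AML 3. Plk4 had 11.4, 5.57 and 15.7 CPM in KO_MSC_AML, against the WT_MSC_AML values above, and overlapped them.

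For the checkpoint and the kinetochore, Bub1b had 14.7, 9.29 and 17.0 CPM in KO_MSC_AML, against 34.5, 43.3, 22.7, 44.5 and 35.1 CPM in WT_MSC_AML (-1.38, SE 0.25, adjusted p = 0.00225). Bub1 had 6.99, 4.22 and 11.0 CPM in KO_MSC_AML, against 20.5, 20.5, 10.1, 24.0 and 20.3 CPM in WT_MSC_AML (-1.35, SE 0.33, adjusted p = 0.0114), where KO_MSC_AML 3 exceeded WT_MSC_AML 3. Cenpe had 14.2, 11.8 and 21.5 CPM in KO_MSC_AML, against 39.8, 43.6, 26.3, 37.8 and 39.2 CPM in WT_MSC_AML (-1.22, SE 0.21, adjusted p = 0.00187). Cenpa, at 9.14, 9.43 and 19.6 CPM in KO_MSC_AML, differed less (-0.82, SE 0.26, adjusted p = 0.0319), and its highest KO_MSC_AML library exceeded the lowest WT_MSC_AML library. Kif11 had 10.4, 7.22 and 13.5 CPM in KO_MSC_AML, against 47.2, 48.5, 23.2, 56.4 and 43.6 CPM in WT_MSC_AML (-2.06, SE 0.30, adjusted p = 0.000746). It had the lowest fold change of the 9 spindle genes, all of which fell.

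Tpx2 had 39.7, 19.6 and 52.6 CPM in KO_MSC_AML, against 87.7, 89.4, 55.8, 100.2 and 97.9 CPM in WT_MSC_AML (-1.19, SE 0.30, adjusted p = 0.0151). Racgap1 had 28.8, 20.9 and 44.2 CPM in KO_MSC_AML, against 81.4, 91.9, 55.5, 93.5 and 85.1 CPM in WT_MSC_AML (-1.37, SE 0.24, adjusted p = 0.00239). Both fell without overlap, again with KO_MSC_AML 3 nearest to the wild type values. Cit had the fold change nearest to 0 of the 44, at 6.91, 5.50 and 10.4 CPM in KO_MSC_AML, against 9.97, 12.6, 7.79, 10.9 and 11.6 CPM in WT_MSC_AML (-0.46, SE 0.23, adjusted p = 0.149). Cdca8 had 7.91, 5.29 and 13.9 CPM in KO_MSC_AML, against 22, 22, 13.6, 25 and 20.1 CPM in WT_MSC_AML (-1.17, SE 0.29, adjusted p = 0.0124), and Cdca3 13.7, 9.50 and 21.1 CPM in KO_MSC_AML, against 47.5, 52.9, 37.2, 59.7 and 44.3 CPM in WT_MSC_AML (-1.69, SE 0.24, adjusted p = 0.000656). Cdca3 was separate between the groups and Cdca8 overlapped.

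Around the 44, 25 of 30 other mitosis genes fell and 1 rose in KO_MSC_AML against WT_MSC_AML, and 21 of 30 S phase genes fell and 0 rose. Of 7 CDK inhibitors 4 rose and 0 fell, where 16.9% of all genes tested were called higher. Cdkn2a had 285, 382 and 301 CPM in KO_MSC_AML, against 67.4, 60.4, 79.2, 60.4 and 38.8 CPM in WT_MSC_AML (edgeR log2 fold change 2.42 with SE 0.20, adjusted p = 1.72e-05). Cdkn1a had 648, 799 and 460.5 CPM in KO_MSC_AML, against 331, 331, 360.5, 307 and 260.4 CPM in WT_MSC_AML (1.02, SE 0.17, edgeR adjusted p = 0.00151). Neither gene overlapped between the groups. Cdkn2b, which encodes p15, rose as well (1.41), and Mybl2 fell (-1.52, SE 0.27, edgeR adjusted p = 0.00182).

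Whether co-culture acted differently on the 2 genotypes was asked with an interaction over the 16 MSC libraries, taken as the log2 fold change of KO_MSC_AML against KO_MSC minus that of WT_MSC_AML against WT_MSC. Of the 44 genes 0 passed edgeR's test (0.00% of 14247 genes were called) and 21 had an unadjusted p under 0.05, against 7.73% of all genes. DESeq2 called 0 of the 44 and 0.140% of all genes. All 44 values were positive, with a median of 1.52 against 0.02 over all genes. Cit had the smallest p (1.97, SE 0.55, adjusted p = 0.529), Bub1 the highest value (2.76, SE 0.79, adjusted p = 0.529) and Incenp the lowest (0.33, SE 0.41, adjusted p = 0.880). Without WT_MSC 1, 7 of the 44 passed where 0.0775% of all genes did, and with the carried AML level subtracted too, 1 passed, a setting chosen after seeing the data. KO_MSC and WT_MSC enter both this value and the comparisons above, which therefore share libraries.

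In the leukaemia cells the 44 genes were higher than in the MSC of the same co-cultures, for most of them. In KO_AML against KO_MSC_AML 43 of the 44 rose, where 79.9% of 13620 genes were called and 38.8% higher, and all 44 lay above without overlap, against 40.5% of all genes. The median log2 fold change was 2.83, with Kif11 highest (4.82, SE 0.23, adjusted p = 1.28e-06) and Anln lowest (0.95, SE 0.39, adjusted p = 0.0585). In WT_AML against WT_MSC_AML 40 of the 44 rose, where 82.0% of 14133 genes were called and 39.1% higher, and 40 lay above without overlap, against 38.1% of all genes. The median there was 1.60, with Cdca8 highest (2.64, SE 0.15, adjusted p = 1.10e-08). Because most genes differ between 2 cell types, the counts alone say little, while both medians stood above those of all genes, -0.05 and -0.08.

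Top2a had 561, 645 and 661 CPM in KO_AML and 577, 656 and 621 CPM in WT_AML. Mki67 had 459, 559 and 534 CPM in KO_AML and 427, 602 and 517 CPM in WT_AML. In both genes every AML library lay above every MSC library. Kif11 had 263, 296 and 306 CPM in KO_AML and 254, 272 and 276 CPM in WT_AML. The 4 genes that did not pass in the wild type co-cultures were Anln, Kif20a, Foxm1 and Aspm. Anln had 66.6, 76.0 and 71.0 CPM in WT_AML, against 80.7, 86.2, 48.3, 96.3 and 101 CPM in WT_MSC_AML (-0.21, SE 0.19, adjusted p = 0.336), the 1 negative fold change of the 44, which passed without WT_MSC_AML 3 (-0.35, adjusted p = 0.00659). Kif20a had 118, 111 and 123 CPM in WT_AML, inside the WT_MSC_AML range (0.08, SE 0.14, adjusted p = 0.598).

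The order of the genes by level differed between the cell types: across the 44, Spearman's rho was 0.99 between KO_AML and WT_AML, 0.92 between KO_MSC_AML and WT_MSC, and 0.66 between WT_MSC and WT_AML. By role, the median log2 fold change in WT_AML against WT_MSC_AML was highest for the kinases, at 2.27, was 1.86 for the passenger complex and cohesion, and was lowest for the cytokinesis genes, at 0.94. In KO_AML against KO_MSC_AML the cytokinesis genes were again lowest, at 2.17, beside 3.73 for the passenger complex and cohesion. The 2 comparisons share no library.

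Between AML cells from the 2 kinds of co-culture no member passed the test. In KO_AML against WT_AML 0 of the 44 passed edgeR's test, where 0.0482% of 12444 genes were called, 0.00804% higher and 0.0402% lower. An edgeR unadjusted p under 0.05 was found for 2 of the 44, against 5.75% of all genes. DESeq2 called 0 (0.115% of all genes), and the median log2 fold change was 0.03. Fold changes ran from -0.19 for Aspm (SE 0.12) to 0.16 for Kif4, a chromosome-bound kinesin (SE 0.08), with 31 positive and 13 negative. Kif11 had the smallest p (0.13, SE 0.06, adjusted p = 0.867) and Cdca3 the largest (0.00, SE 0.06, adjusted p = 0.999). The summed level was 5354 ± 280.1 CPM in KO_AML and 5336 ± 144 CPM in WT_AML (SD, n = 3 each). Nusap1, a protein that bundles spindle microtubules, was the 1 of the 44 whose KO_AML libraries all lay above WT_AML, against 3.26% of all genes, at 51.0, 50.7 and 58.4 CPM in KO_AML and 47.8, 48.5 and 49.0 CPM in WT_AML, and it was named for that after its values were seen.

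Members with both promoter elements and members without both had similar medians. In KO_MSC against WT_MSC the 25 genes with a CCAAT box and a CHR had a median log2 fold change of -3.04 and the other 11 with a promoter -2.71. In KO_MSC_AML against KO_MSC these medians were 1.96 and 1.79, and in KO_MSC_AML against WT_MSC_AML -1.38 and -1.34. Plk4 and Cit, without either element, were the nearest to 0 in 1 genotype comparison each, but Nuf2, also without either, fell by 3.64 on the log2 scale in KO_MSC against WT_MSC.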

How the data were processed

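RNA of 22 libraries was made into cDNA with SMART-Seq v4 and read as single ends, per the labels' protocols, which do not say which of the named sequencers read which library. Reads were aligned with STAR 2.6.1d to GRCm38 and counted per gene with featureCounts, per the submitters' processing notes. For annotation and strand setting, nothing is stated in those notes. The deposited table holds raw counts, which were analysed, and the authors' DESeq2 log2 fold changes and adjusted p-values, of which only calls were used; 22 columns of the authors' normalized values were not used. The members and lists were chosen with earlier results of these data known.

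Counts were tested with edgeR 4.0.16 in R 4.3.3 (TMM, filterByExpr, robust quasi-likelihood F-test, the groups compared only, Benjamini-Hochberg over all genes tested, adjusted p under 0.05), which was first tested on simulated data. SE is the log2 fold change over the root of F. Members given library by library are the 2 of each role with the highest mean level; each comparison also names those with the smallest and largest p and the highest and lowest fold change. Alternatives were DESeq2 1.42.0, RLE scaling, no low-count filter, the replicate number as a block, 1 fit of all libraries, subtraction of the carried AML level, subsets by Xist and Ddx3y, and leaving out each library. Depth was 11201751 to 24826876 counts.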

Additional observations from a re-analysis of the deposited data

Results flagged for a closer look

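Within groups of 4 or 5 libraries, 8 of 57 groups tested by Dixon's criterion held a library far from the others; chance flags about 1 in 20 groups, and the genes share libraries, so the 8 are not independent. In WT_MSC_AML the low library was replicate 3 each time. Its summed level of the 44 genes was 1200.1 CPM, against 1912 to 2165 CPM in the other 4. It had 97.5 CPM of Top2a against 167 to 191 CPM, 10.1 CPM of Bub1 against 20.3 to 24.0 CPM, and 55.8 CPM of Tpx2 against 87.7 to 100.2 CPM.

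In WT_MSC the low library was replicate 1. It had 2.59 CPM of Bub1b against 31.5 to 35.3 CPM in the other 3, 5.45 CPM of Cenpa against 27.1 to 27.8 CPM, 12.3 CPM of Kif20a against 113 to 130.2 CPM, and 4.25 CPM of Cdca3 against 41.5 to 47.9 CPM. What sets either library apart was not tested.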

How the results depend on the processing

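Of 645 alternative values for 51 results, 564 kept their direction and their side of the threshold or stayed close to the reported value, and 10 changed sign; all 116 alternative medians over the 44 genes kept theirs. Leaving out 1 library gave 0 to 44 members called in KO_MSC against WT_MSC, 0 to 34 in KO_MSC_AML against KO_MSC and 0 to 7 in the interaction. In KO_MSC_AML against KO_MSC, DESeq2 called 42, the fit of all 22 libraries 36, the fit with the carried AML level subtracted 0 and the libraries with Xist only 0, where KO_MSC is 1 library, so that this 0 says nothing about stability. With that level subtracted and without WT_MSC 1, the interaction called 1. For most of these fits the share of all genes called is not given here. The counts therefore do not tell a move of the members from a move of all genes. The cause of these moves was not tested.

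The reported tests did not pair samples by replicate number. In no comparison did every same-numbered pair have a correlation of deviations over 0.1, a cut set after seeing the data. The pairs over it were 0 to 2 of 3 or 4, and KO_AML 1 with WT_AML 1 reached 0.31. A pairing of the samples is therefore not excluded. With the replicate block, members called were 0 in KO_MSC against WT_MSC and 8 in KO_MSC_AML against WT_MSC_AML. How many of all genes were called with the block is not given, so these counts do not set the members apart from other genes. Anln was at 0.03 in WT_AML against WT_MSC_AML with the block.

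Cenpa in WT_MSC_AML against WT_MSC was at -0.28 without WT_MSC 1, -0.02 without WT_MSC_AML 2 or 4, and -0.32 without WT_MSC 1 and with the carried level subtracted; leaving out 1 library gave -0.28 to 0.17. Kif20a in WT_AML against WT_MSC_AML was at -0.02 without WT_MSC_AML 3, the lowest of -0.02 to 0.16. Cdca3 in KO_AML against WT_AML was at -0.00 without a low-count filter, -0.02 in the fit of all libraries, -0.04 without WT_AML 2 and -0.03 without KO_AML 1. The carried AML level was 35.8 to 68.8 CPM for KO_MSC_AML and 59.6 to 89.3 CPM for WT_MSC_AML when 1 library was left out.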
